A study of Homo sapiens with 4 samples.

Results

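ERBB2, the gene of the HER2 receptor tyrosine kinase, and 9 genes that lie near it on the long arm of chromosome 17 were examined in BT474 cells treated with AICAR. The genes were GRB7, STARD3, PGAP3 (formerly PERLD1), MIEN1 (formerly C17orf37), PNMT, TCAP, ORMDL3, MED1 and CDK12 (formerly CRKRS). The 10 genes were chosen with earlier results of these data known. The rule that finds their probe sets uses gene names and no measured value. All probe sets that the platform annotation assigns to exactly 1 of these symbols were taken. This gave 24 probe sets for 10 genes, of 54675 probe sets and 19775 genes on the array. BT474 is an established human breast cancer cell line that is known to carry an amplified ERBB2 locus. Cultures received vehicle or 0.5 mM AICAR, a cell-permeable nucleoside that activates the energy sensor AMPK, for 24 h, and total RNA was hybridised to Affymetrix expression arrays, with 2 arrays per group and 4 in all. Whether the 2 arrays of a group stand for separate cultures is not stated in the labels. The p-values therefore measure just the spread among these samples, and that spread may be technical.

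Amplification of this locus raises the copy number of ERBB2 together with a variable number of its neighbours, and the extra copies are known to be transcribed. ERBB2 has no known ligand of its own and signals through dimers with the other receptors of its family, from which adaptors pass the signal to the RAS and PI3K pathways. The neighbours do unrelated work: GRB7 is an adaptor that binds ERBB2, STARD3 binds cholesterol in late endosomes, PGAP3 remodels the lipid of GPI anchors, and MIEN1 is a small membrane-associated protein linked to cell migration. PNMT makes adrenaline from noradrenaline, TCAP caps titin in the muscle sarcomere, ORMDL3 restrains serine palmitoyltransferase, MED1 is a Mediator subunit that nuclear receptors bind, and CDK12 is the cyclin K kinase of the RNA polymerase II tail. These arrays measured RNA only, and no line without the amplification was hybridised, so copy number and its share in any level were not measured here.

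The order of the genes along the chromosome, in the RefSeq gene table, is MED1, CDK12, STARD3, TCAP, PNMT, PGAP3, ERBB2, MIEN1, GRB7 and ORMDL3. RefSeq promoter windows of GRCh38.p14 matched 7 of the 10 genes, and 250 bases before each start were searched for letters, on both strands. The letters were those of ERR, AP-2, E-box, ETS, CCAAT and TATA motifs and the palindrome TCGCGA. PGAP3 and ERBB2 are transcribed away from each other, and the starts used in the RefSeq windows leave only 36 bases between them, so this stretch is shown for both genes. It lies at chr17:39688058-39688093, written on the ERBB2 strand, with matches to the ETS letters CCGGAAGT in capitals:
PGAP3 to ERBB2: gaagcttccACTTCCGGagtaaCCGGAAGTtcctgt
The letters occurred once in each orientation within these 36 bases. They were present in 3.42% of all 35116 windows, and at least 2 matches were present in 0.256%. These shares do not allow for the other motifs searched. STARD3 had 1 match to the AP-2 letters GCCNNNGGC, and MIEN1 had 1 to the E-box CACGTG. The ERBB2 window had 1 CCAAT match and no AP-2 match. ERBB2 has other starts, so this window need not be the one used in these cells.

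The windows of CDK12 and MED1 are shown because CDK12 had the largest difference of the brightest probe sets and MED1 lies next to it, transcribed in the other direction. Capitals mark the palindrome TCGCGA, and in MED1 also 1 CCAAT. The palindrome was added to the search after these windows had been read. The CDK12 window is chr17:39461236-39461485 on the plus strand and the MED1 window is chr17:39451264-39451513 on the minus strand:
CDK12: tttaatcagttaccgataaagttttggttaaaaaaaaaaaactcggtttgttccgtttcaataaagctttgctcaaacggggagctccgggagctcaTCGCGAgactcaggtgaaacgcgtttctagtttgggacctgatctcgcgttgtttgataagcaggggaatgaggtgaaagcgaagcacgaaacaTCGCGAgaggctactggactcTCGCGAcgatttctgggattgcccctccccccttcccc
MED1: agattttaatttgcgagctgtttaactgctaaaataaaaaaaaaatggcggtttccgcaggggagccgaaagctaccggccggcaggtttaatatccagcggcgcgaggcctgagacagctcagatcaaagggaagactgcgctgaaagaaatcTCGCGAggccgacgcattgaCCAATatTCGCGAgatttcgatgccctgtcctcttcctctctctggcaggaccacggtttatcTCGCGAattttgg
Each window held 3 copies of TCGCGA. Across all windows 2.64% had at least 1 copy, and 6 windows, or 0.0171%, had at least 3. None of the 7 genes had a match to TCAAGGTCA, the response element letters of ERR receptors, which 0.319% of all windows had. These matches describe letters only, and binding was not measured.

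The cells carried the RNA of luminal breast epithelium. All 10 luminal markers, among them KRT8, KRT18, KRT19 and EPCAM, had probe sets above the 90th percentile of the array. The 3 basal markers with a probe set lay between the 25.4th and the 60.3rd percentile, and 10 stromal, endothelial and blood markers between the 19.5th and the 89.3rd, 5 of them below the 50th. The highest of these, the collagen gene COL1A1, was lower with AICAR (log2 -0.63, limma adjusted p = 0.0209). That call was lost with the mean of its 5 probe sets (log2 -0.23, adjusted p = 0.0727), with all probe sets tested separately (0.0549) and without vehicle replicate 1 (0.0868) or 2 (0.11). The 4 arrays correlated at r = 0.994 to 0.997 across probe sets, which are not independent replicates.

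By their brightest probe sets ERBB2 and most of its neighbours lay high in the array range under vehicle and AICAR alike. For 7 of the 10 genes this probe set lay above the 90th percentile of gene means, and for ERBB2, MED1 and MIEN1 above the 99th. GRB7, PNMT and TCAP lay lower, at the 75.6th, 71.8th and 62.1st. Of all 24 probe sets 17 lay above the 90th percentile of the array. High values were not particular to the 10 genes. Among 34 flanking genes with a probe set, described below, 13 lay above the 90th percentile of all probe sets and 4 above the 99th. A percentile places a probe set within its array and does not rank transcripts, because probe sets differ in affinity. No value of the 10 genes reached the highest values of the arrays, 15.33 to 15.34 (log2), where the probe set of the nearby ribosomal gene RPL19 lay on every array.

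ERBB2 RNA, by its brightest probe set 216836_s_at, was at 13.30 and 13.32 (log2) with vehicle and at 13.36 and 13.36 with AICAR, the 99.3rd to 99.4th percentile of the array. Both AICAR values lay above both vehicle values, but by less than 0.1. The difference was 0.05 (log2, SE 0.0659, 95% confidence interval -0.11 to 0.21, limma adjusted p = 0.693). The interval thus included 0.

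The other 2 probe sets of ERBB2 lay much lower in the array range and did not behave alike. Probe set 234354_x_at, whose suffix marks probes that can match other transcripts, was at 7.96 and 7.86 (log2) with vehicle and 8.27 and 8.49 with AICAR. Its difference of 0.47 (95% confidence interval 0.22 to 0.73) was the largest of the 24 probe sets, and in a fit of all 54613 probe sets other than controls it did not pass (adjusted p = 0.0881). Probe set 210930_s_at was at 6.89 and 7.10 with vehicle and 7.02 and 6.81 with AICAR, so its groups overlapped. With the mean of the 3 probe sets the ERBB2 difference was 0.15 (log2, -0.00041 to 0.29, adjusted p = 0.196), beside 0.05 by the brightest probe set. It was still not past the threshold, but its size depended on the choice of probe set.

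None of the 10 genes passed an adjusted p under 0.05 (limma), with 0 higher and 0 lower. Over the whole array 9.82% of the 13842 genes tested passed, 4.63% higher and 5.19% lower. Before adjustment 5 of the 10 had a limma p under 0.05, namely CDK12, PNMT, PGAP3, TCAP and MIEN1, against 26.1% of all genes. Differences were positive for 7 genes and negative for 3, with a median of 0.06 (log2), beside 0.01 over all genes tested. Over all 13842 genes tested 7257 differences were positive and 6585 negative. The groups did not overlap for 9 of the 10 genes, 7 with AICAR above and 2 with AICAR below, while 56.6% of all genes tested had groups that did not overlap. Single genes were not permuted, because 0.333 is the smallest p that an exact test of 2 against 2 arrays allows.

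**Figure D1:**
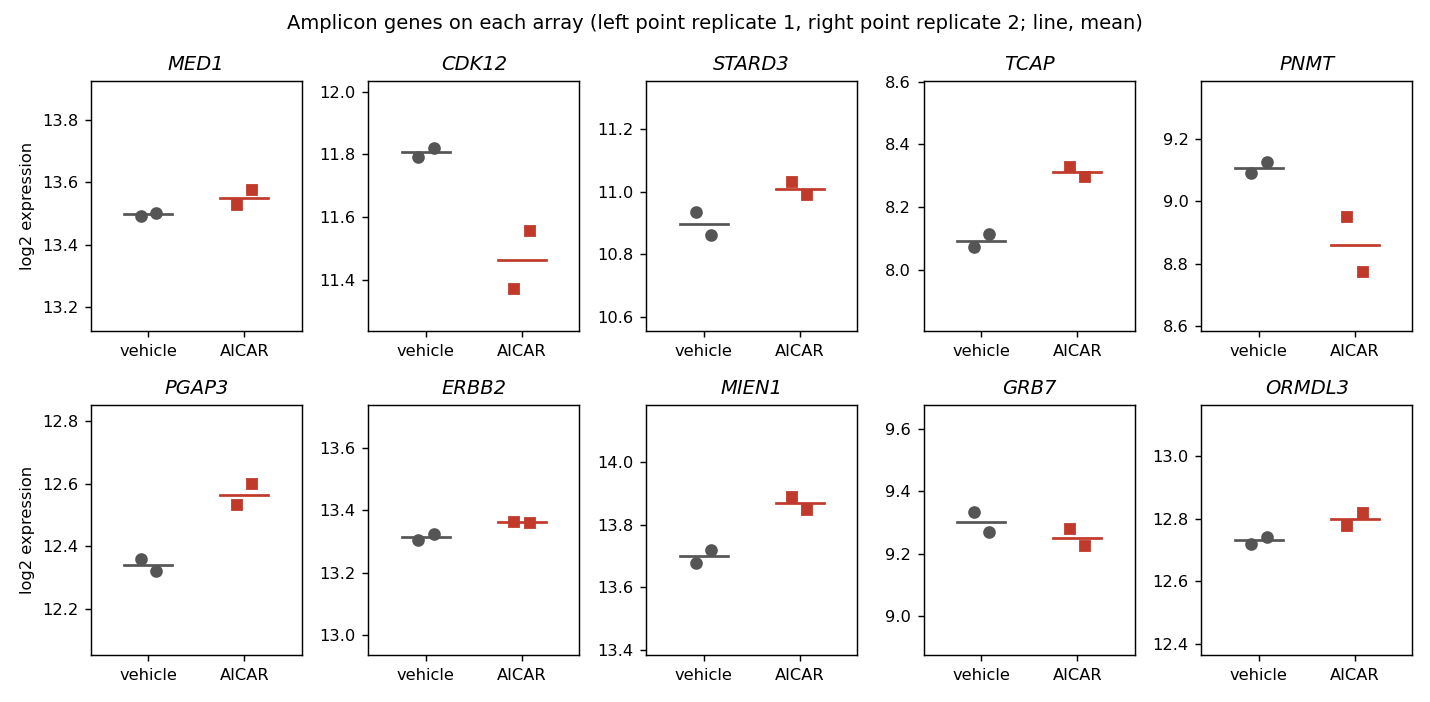
Deposited log2 expression of the brightest probe set of each gene, on the vertical axis, for the 2 vehicle arrays (grey circles) and the 2 AICAR arrays (red squares); lines are group means and every panel spans 0.8 log2 units. CDK12 and PNMT have both AICAR points below both vehicle points, GRB7 overlaps, and the other 7 genes have AICAR above.

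CDK12, the kinase that with cyclin K sustains transcription of long genes and of DNA repair genes, had the largest difference of the brightest probe sets. Its probe set 225690_at was at 11.79 and 11.82 (log2) with vehicle and at 11.37 and 11.56 with AICAR. Both AICAR arrays lay below both vehicle arrays, a 1.27-fold lower mean (log2 -0.34, SE 0.0839, 95% confidence interval -0.55 to -0.14, adjusted p = 0.0534). It therefore missed the threshold narrowly.

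The other 7 probe sets of CDK12 were negative as well, so all 8 were, with differences from -0.42 to -0.17 (log2). In 7 of the 8 both AICAR arrays were below both vehicle arrays, against 46.9% of all probe sets with groups that did not overlap in either direction. The probe sets detect the same gene in the same RNA and are not independent. None of the 8 passed in the fit of all probe sets, in which 1.49% of 54613 did, 0.599% higher and 0.888% lower. The lowest adjusted p there was 0.0977, for 225697_at, which read 11.10 and 11.12 with vehicle and 10.70 and 10.78 with AICAR.

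The 2 AICAR arrays differed for CDK12: replicate 1 was below replicate 2 in all 8 probe sets. Without AICAR replicate 2 the difference was -0.44 (log2, adjusted p = 0.0479), and without AICAR replicate 1 it was -0.25 (adjusted p = 0.127). CDK12 also passed with a stricter filter on dim genes (adjusted p = 0.0275) and with an intensity trend and robust variances (0.00244), and the adjusted p ranged from 0.00244 to 0.210 over all alternatives. These 2 settings also raised the share called among all genes, to 18.3% and 17.8%.

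MED1, which lies next to CDK12 and links nuclear receptors to RNA polymerase II, was at 13.49 and 13.50 (log2) with vehicle and at 13.53 and 13.57 with AICAR by probe set 203497_at. Its difference was 0.05 (95% confidence interval -0.11 to 0.21, adjusted p = 0.659), on the other side of 0 from that of CDK12. The difference between the neighbouring genes was not tested. Of the 4 probe sets of MED1, 2 were positive and 2 negative, from -0.20 to 0.08, and the mean over them was -0.03 (adjusted p = 0.834), so MED1 has no settled sign. The lowest, 225452_at, was at 12.71 and 12.71 with vehicle and at 12.67 and 12.36 with AICAR, so that AICAR replicate 2 alone was far below.

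**Figure D2:**
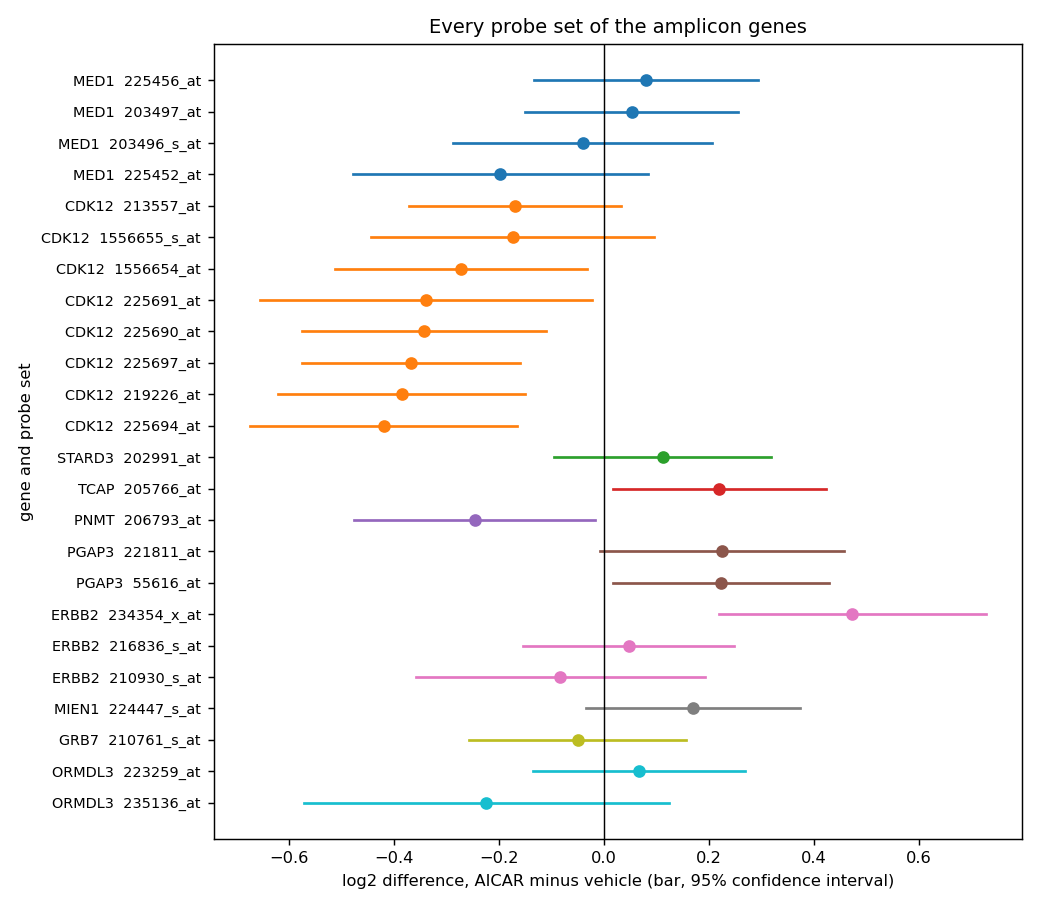
Log2 difference, AICAR minus vehicle, on the horizontal axis for each of the 24 probe sets, in gene order along the chromosome; points are differences and bars are 95% confidence intervals from the fit of all probe sets. All 8 CDK12 probe sets are left of 0, while ERBB2, MED1 and ORMDL3 each have probe sets on both sides.

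The genes next to ERBB2 on its upstream side had small differences of both signs. PGAP3, a GPI anchor remodelling enzyme that shares the short stretch between starts with ERBB2, was at 12.36 and 12.32 (log2) with vehicle and at 12.53 and 12.60 with AICAR by probe set 55616_at. Both AICAR values lay above the vehicle values, with a difference of 0.22 (SE 0.0690, 95% confidence interval 0.06 to 0.39, adjusted p = 0.0986). Its other probe set, 221811_at, gave 9.93 and 10.07 with vehicle and 10.16 and 10.29 with AICAR, which is 0.23 higher (adjusted p = 0.324 among all probe sets). The probe sets of PGAP3 thus had nearly the same difference, which passed in 1 alternative, an intensity trend with robust variances (adjusted p = 0.00503). The difference between PGAP3 and ERBB2 was not tested.

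TCAP, a titin-binding protein of striated muscle, was at 8.07 and 8.11 (log2) with vehicle and at 8.33 and 8.30 with AICAR. AICAR exceeded vehicle by 0.22 (95% confidence interval 0.06 to 0.38, adjusted p = 0.0969). The probe set lay at the 76.9th percentile of the array although BT474 is an epithelial line, and it passed in 1 alternative, the stricter filter on dim genes (adjusted p = 0.0498). PNMT, the adrenaline-synthesising enzyme of adrenal chromaffin cells, lies beside it and was at 9.09 and 9.12 with vehicle and at 8.95 and 8.77 with AICAR. Both AICAR arrays were below both vehicle arrays, with a difference of -0.25 (-0.44 to -0.05, adjusted p = 0.119). Its size depended on which AICAR array was used: it was -0.33 without AICAR replicate 1 and -0.16 without AICAR replicate 2, and neither passed. STARD3, a cholesterol-binding protein of late endosomes, lies next to TCAP on the side away from ERBB2. It was at 10.93 and 10.86 with vehicle and at 11.03 and 10.99 with AICAR, which is 0.11 higher (-0.06 to 0.28, adjusted p = 0.363).

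On the other side of ERBB2 lies MIEN1, which runs in the opposite direction and whose span overlaps the end of ERBB2 in the RefSeq gene table. Its single probe set, 224447_s_at, was at 13.68 and 13.72 (log2) with vehicle and at 13.89 and 13.85 with AICAR, the highest in the array range of the 24. The difference was 0.17 (95% confidence interval 0.0066 to 0.33, adjusted p = 0.179), and it passed in 1 alternative, the intensity trend with robust variances (adjusted p = 0.00614).

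GRB7, the adaptor that binds ERBB2 through its SH2 domain, was the gene whose groups overlapped, at 9.33 and 9.27 (log2) with vehicle and 9.28 and 9.22 with AICAR. Its difference was -0.05 (-0.22 to 0.12, adjusted p = 0.690). ORMDL3, the farthest of the 10 genes on this side and a brake on sphingolipid synthesis, was at 12.72 and 12.74 with vehicle and at 12.78 and 12.82 with AICAR, which is 0.07 higher (-0.09 to 0.23, adjusted p = 0.574). Its other probe set was at 10.18 on 3 arrays and at 9.73 on AICAR replicate 2, and the mean of both differed by -0.08 (adjusted p = 0.601), so its sign was not settled.

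The surrounding region was read from 25 protein-coding genes on each side of ERBB2, of which 41 are not among the 10 genes and 34 had a probe set with a single symbol. Of these flanking genes 30 were bright enough to be tested, and 3 fell and 0 rose, with 10 positive and 20 negative differences and a median of -0.06 (log2). The share called, 3 of 30, was close to the 9.82% of all genes called in either direction. All 3 fell, beside 5.19% of all genes that fell and 4.63% that rose. The 3 genes lie far from ERBB2. CDC6, which loads the replicative helicase, was at 9.16 and 9.03 with vehicle and at 8.48 and 8.37 with AICAR (log2 -0.67, adjusted p = 0.00953). TOP2A, a DNA topoisomerase of dividing cells that is often co-amplified with ERBB2, was at 12.11 and 12.28 with vehicle and at 11.66 and 11.56 with AICAR (log2 -0.58, adjusted p = 0.0149).

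MLLT6, a chromatin-associated zinc finger protein at the other edge of the region, was at 10.64 and 10.65 (log2) with vehicle and at 10.31 and 10.19 with AICAR (log2 -0.40, adjusted p = 0.0247). Its call was lost without a dim filter (adjusted p = 0.0512) and with the mean of its 3 probe sets (0.242). IGFBP4, a binding protein of insulin-like growth factors with a difference of -0.37 (adjusted p = 0.0503), passed in 5 alternatives, among them the replicate block (0.037) and the mean of probe sets (0.0413). All 3 flanking calls were lost with either vehicle array left out, which leaves 1 vehicle array, and most calls over all genes were lost too.

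Genes that lie between the 10 genes had levels over a wide range. Of 4 tested, 0 passed (limma, against 9.82% of all genes) and 0 had an unadjusted p under 0.05 (against 26.1%). NEUROD2, a neuronal transcription factor, and PPP1R1B, a phosphatase inhibitor known from dopamine-responsive neurons, lie between CDK12 and STARD3 and were at the 60.5th and the 55.7th percentile, with differences of -0.12 and -0.04 (log2). IKZF3, a lymphoid transcription factor, and GSDMB, a gasdermin, were at the 89.2nd and the 87.9th percentile, with -0.10 and -0.01. ZPBP2, a sperm protein, was dim at the 14.8th percentile and was not tested. Probe set values of the genes inside this stretch of the chromosome were thus both high and low in these cells, and their copy number was not measured.

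Just outside the 10 genes the tested genes did not pass either. Next to MED1, the ubiquitin ligase subunit FBXL20 differed by -0.13 (log2), STAC2 by 0.06 and the calcium channel subunit CACNB1 by 0.08, while RPL19 was at the top of the array range. Beyond ORMDL3, the proteasome subunit PSMD3 differed by 0.00055 and the cytokine CSF3 by -0.04, and the Mediator gene MED24 was dim.

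**Figure D3:**
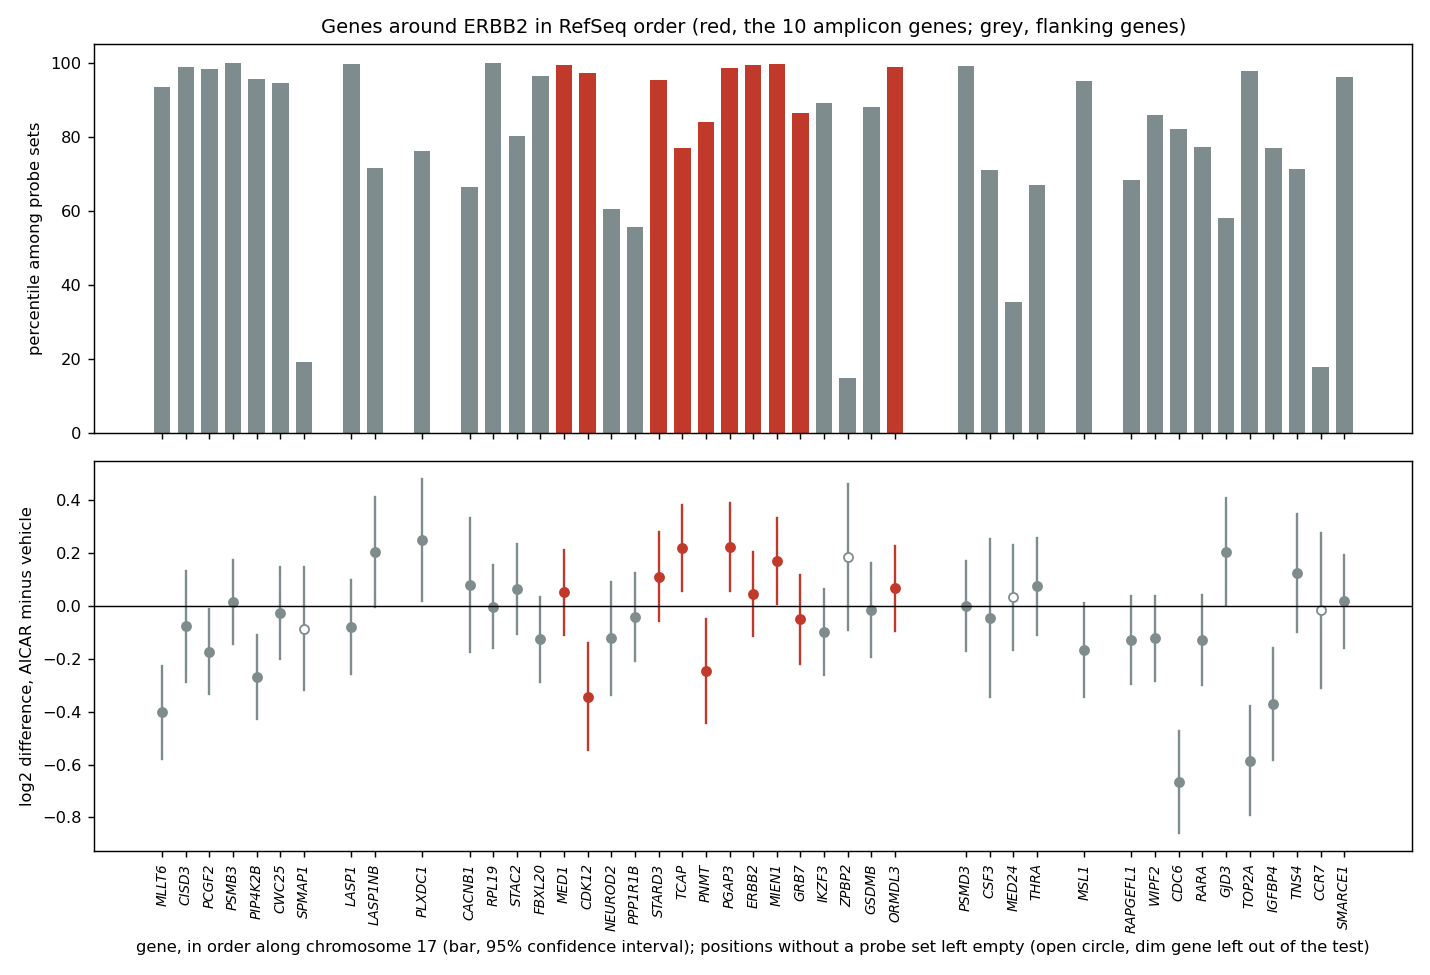
Genes in RefSeq order along chromosome 17, with the percentile of the brightest probe set among all probe sets (bars, top) and the log2 difference, AICAR minus vehicle, with its 95% confidence interval (points and lines, bottom); red marks the 10 genes, grey the flanking genes, open circles dim genes. CDC6, TOP2A and MLLT6, the 3 genes that fell, lie away from ERBB2, whose own difference is 0.05.

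Genes of ERBB2 signalling were read as a list of receptors, adaptors, kinases, phosphatases and chaperones. Of 43 genes listed 34 had a probe set and were tested, and 0 passed (limma, against 9.82% of all genes). An unadjusted limma p under 0.05 was found for 10 of the 34, near the 26.1% of all genes. There were 11 positive and 23 negative differences, with a median of -0.08 (log2). ERBB3, the kinase-poor partner of ERBB2, was at 11.34 and 11.41 with vehicle and at 11.46 and 11.50 with AICAR (log2 0.11, adjusted p = 0.389), with 2 of 5 probe sets positive and 3 negative. The largest differences were those of the receptor ERBB4 (log2 -0.48, adjusted p = 0.157) and of the docking protein GAB1 (0.43, adjusted p = 0.103). With the mean of its 7 probe sets GAB1 passed (log2 0.30, adjusted p = 0.0379). With an intensity trend and robust variances 6 of the 34 signalling genes passed, 2 higher and 4 lower, a share near the 17.8% of all genes that passed in that setting.

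Among factors linked to ERBB2 transcription, 3 of 15 tested genes fell and 0 rose, with a median of -0.11 (log2), beside 5.19% of all genes that fell. KDM4C, a histone demethylase, fell by 0.40 (log2, adjusted p = 0.0274), but 2 of its 4 probe sets were positive. With the mean of its probe sets KDM4C was too dim to be tested. EHF, an epithelial ETS factor, fell by 0.33 (adjusted p = 0.0307), and each of its 6 probe sets was lower with AICAR. The estrogen receptor gene ESR1 fell by 0.31 (adjusted p = 0.0411). Of its 9 probe sets 5 were negative, and its call was lost with the mean of its probe sets (adjusted p = 0.773), with the replicate block (0.0609) and after quantile normalization (0.0581). All 3 calls were lost without a dim filter, where 3.66% of all genes passed. They were also lost with either vehicle array left out, as were most calls over all genes.

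By their brightest probe sets the activators of ERBB2 of the AP-2 family did not pass: TFAP2A differed by 0.06 (adjusted p = 0.615) and TFAP2C by -0.25 (adjusted p = 0.0736). TFAP2C was at 11.99 and 11.99 (log2) with vehicle and at 11.71 and 11.77 with AICAR, and both of its probe sets were negative. It passed with their mean (log2 -0.35, adjusted p = 0.0212), with the stricter dim filter (0.0365) and with a trend and robust variances (0.00453). With averaged probe sets 3 regulators fell as well, namely EHF, TFAP2C and ELF3, the last by 0.42 (log2, adjusted p = 0.0133).

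Known partners and relatives of the neighbours were read in the same way. Of 56 tested genes 6 rose and 0 fell, beside 4.63% of all genes that rose and 5.19% that fell. In either direction the share was near the 9.82% of all genes, and the median was 0.01 (log2), as over all genes. The split depended on the brightest probe set: with the mean of probe sets 7 passed, 6 higher and 1 lower. NPC1 and MED20 were lost there, while VAPB, SPTSSA and MED14 were gained. CDK7, a kinase of the RNA polymerase II tail in TFIIH, was at 10.32 and 10.29 with vehicle and at 10.95 and 11.04 with AICAR, 1.61-fold higher (log2 0.69, SE 0.0708, adjusted p = 0.00745). CDK12 and CDK7 thus lay on opposite sides of 0, which was not tested as a difference. The cyclin partner of CDK12, CCNK, differed by 0.05 (adjusted p = 0.729) and its close relative CDK13 by 0.02 (adjusted p = 0.929), and of the 8 genes of this list CDK7 was the one that passed.

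For STARD3, 2 of 8 tested genes rose and 0 fell, beside 4.63% of all genes that rose and 5.19% that fell. They were the 2 Niemann-Pick proteins that move cholesterol out of late endosomes. NPC2 was at 11.73 and 11.81 (log2) with vehicle and at 12.18 and 12.19 with AICAR (log2 0.41, adjusted p = 0.0215). NPC1 was at 9.41 and 9.30 with vehicle and at 9.73 and 9.83 with AICAR (log2 0.42, adjusted p = 0.0253), but 2 of its 4 probe sets were negative and the mean of all 4 did not pass (adjusted p = 0.993). The other 6 tested genes of this list did not pass by their brightest probe sets, the endoplasmic reticulum anchor VAPB at -0.22 (adjusted p = 0.0875) among them. All 3 probe sets of VAPB were negative, and it passed with their mean, which lay farther from 0 (log2 -0.45, adjusted p = 0.0119), with the stricter dim filter (0.0435) and with a trend and robust variances (0.00317).

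For ORMDL3, the small activating subunit of serine palmitoyltransferase SPTSSB rose, from 7.59 and 7.48 (log2) with vehicle to 8.01 and 8.13 with AICAR (log2 0.53, adjusted p = 0.0166). All 6 tested genes of this list, ORMDL1 and ORMDL2 included, had positive differences by their brightest probe set, and SPTSSB was the one that passed. Over all genes tested 7257 of 13842 differences were positive, and 9.82% of genes passed. With the mean of probe sets SPTLC1 (log2 -0.19) and ORMDL1 (log2 -0.04) turned negative, and SPTSSA passed (log2 0.29, adjusted p = 0.0445). Among 27 tested Mediator subunits 2 rose and 0 fell, beside 4.63% of all genes that rose and 5.19% that fell. The 2 were MED20 (log2 0.46, adjusted p = 0.0153) and MED11 (log2 0.31, adjusted p = 0.0465). MED14 passed with the mean of its 5 probe sets (log2 0.28, adjusted p = 0.0449), although its brightest probe set was at -0.11. The median of the Mediator list was -0.0066. In the GPI anchor list 0 of 6 passed (limma; 2 at an unadjusted p under 0.05), with the transamidase subunits GPAA1 at -0.29, which passed with the stricter dim filter (0.0335) and with a trend and robust variances (0.0127), and PIGK at 0.25, the latter with 1 of 3 probe sets positive, and of the relatives of GRB7 only GRB10 was tested, at 0.0085.

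The calls among partners depended on the setting. They were lost with either vehicle array left out, but that leaves 1 vehicle array, and most calls over all genes were lost too. When all probe sets were tested separately 5 of the 6 were lost and only CDK7 passed, beside 1.49% of all probe sets. MED11 was also lost without a dim filter (adjusted p = 0.092), with median centring (0.0528) and with the replicate block (0.0645), and MED20 with the mean of its probe sets (0.0967).

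**Figure D4:**
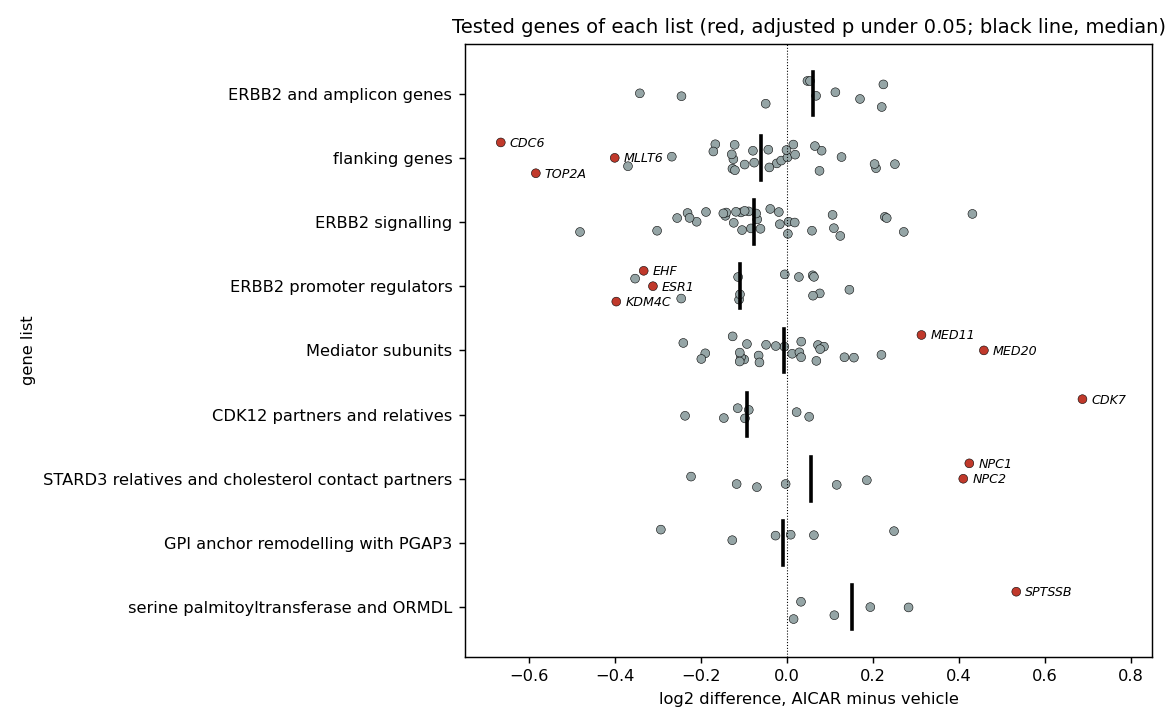
Log2 difference, AICAR minus vehicle, on the horizontal axis for the tested genes of each list; each point is a gene by its brightest probe set, red marks an adjusted p under 0.05 (limma), and the black line is the median. The row of ERBB2 and its neighbours has 0 red points of 10 and a median of 0.06, and the red points of the partner lists are all right of 0.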

How the data were processed

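Total RNA of BT474 cells was profiled on 4 arrays, 2 with vehicle and 2 with AICAR. The authors deposited 1 normalized log2 value per probe set; per the submitters' processing notes they used Affymetrix Expression Console, whose version and algorithm the sources used here do not give. These values (log2 2.95 to 15.3) were not transformed further. The platform annotation gave 1 symbol to 41091 probe sets. Each gene was represented by its brightest probe set, and genes with a mean under log2 6.11, the 30th percentile, were not tested; all 10 genes described here passed this filter. The AICAR minus vehicle difference was fitted in limma 3.58.1 under R 4.3.3 (lmFit, then eBayes with no trend) and adjusted by Benjamini-Hochberg over 13842 genes. Rose and fell mean a two-sided adjusted p under 0.05. The fit was also run on simulated data drawn from its own variance model, which cannot show whether that model suits these arrays. Alternatives were other dim filters, quantile normalization, median centring, robust variances with a trend, averaged probe sets, separate probe sets, a replicate block, and the omission of each array. The 10 genes and the lists were chosen with earlier results of these data known. Named were all 10 genes, flanking genes between them or within 5 genes beyond them, every flanking gene that passed, up to 4 genes per list that passed or otherwise the 2 with the largest change, and TFAP2A, TFAP2C, ERBB3, CCNK and CDK13. VAPB, ORMDL1, ORMDL2, SPTLC1, SPTSSA, MED14, ELF3, IGFBP4 and COL1A1 were named after their values were seen. Genes most like ERBB2 are not named, since 4 arrays are too few for a correlation. The number of arrays limits the precision. RefSeq's gene table gave names and order only. Some listed genes are not analysed here.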

Additional observations from a re-analysis of the deposited data

How the results depend on the processing

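ERBB2 stayed short of the threshold in all 12 alternatives, with adjusted p 0.196 to 0.836 where all arrays were kept. Its sign was positive in each, but most settings could not change it. Other dim filters, a trend with robust variances, separate probe sets and the replicate block kept the same difference, 0.047 (log2). Leaving out an array could not reverse the sign, because both AICAR values lay above both vehicle values. The sign was free to change with quantile normalization (0.064), median centring (0.035) and averaged probe sets (0.146), and it stayed positive. The count of the 10 genes that passed, 0, became 2 with the dim filter at the 50th percentile and 3 with a trend and robust variances. Of all genes tested 18.3% and 17.8% passed in these settings. Under these settings the counts were 2 and 6 for ERBB2 signalling (1 with the mean of all probe sets; 0 to 1 with an array left out) and 5 and 6 for flanking genes (0 to 3). The promoter regulators had 0 with all probe sets separately, 0 without a dim filter and 0 to 1 with an array left out. Partners and relatives had 1 with all probe sets separately, 11 with a trend and robust variances and 0 to 5 with an array left out. Over all genes the 1359 calls became 723 without a dim filter and 2466 with a trend and robust variances. With an array left out they became 120 to 985. Of the 1359 calls 47.2% were higher genes, but 57.7% after quantile normalization. With an array left out this share was 42.4% to 75% (75% without vehicle replicate 1). With all probe sets separately 812 of 54613 probe sets passed, 40.3% of them higher. These are probe sets and not genes, so the 812 cannot be compared directly with the 1359. The median of the 10 genes, 0.06 (log2), became 0.0431 when the probe sets of each gene were averaged, 0.0745 after quantile normalization and 0.0487 to 0.0818 with an array left out. With the mean of all probe sets MED1 (-0.0259) and ORMDL3 (-0.0785) changed sign; their probe sets had both signs. The labels do not say whether samples with the same replicate number belong together. The deviations of arrays with the same number correlated at -0.07, and 2 arrays per group cannot show whether the samples were paired. With the replicate block 1163 genes and 0 of the 10 genes passed. Where the cause of a change is not given by the setting itself, the cause was not tested. The median standard error of the differences, 0.0772 (log2), limits what 2 arrays per group can detect.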
